A study of Drosophila melanogaster with 2 samples.

Results

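Single-minded (Sim) ChIP-seq peaks called in both biological replicates were examined. Members are peaks of the optimal list, called on both replicates together, that overlap by at least 1 bp a peak in each replicate's own thresholded list. They number 827 of 2682 optimal peaks (30.8%). A further 934 optimal peaks overlapped 1 replicate list and 921 overlapped neither, and these 1855 are called the other peaks. The members were chosen by the peak calls themselves, so their signal values, ranks and list membership are given as descriptions with no test. Embryos of the Drosophila melanogaster strain sim-GFP, whole animals aged 0 to 24 h, carried an insertion at sim and expressed Sim fused to eGFP. Chromatin was precipitated with an antibody against GFP per the description, while the antibody label reads sim. All embryos carried this fusion, and the single group held 2 samples, labelled biological replicates 1 and 2. A labelled control experiment was not analysed here, and the whole embryo mixes midline cells with all other tissues. The labels register the replicates as separate biosamples of the same strain.

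Sim is a basic helix-loop-helix PAS transcription factor that sits at the top of the gene hierarchy that makes the midline of the Drosophila nerve cord. It dimerizes with Tango and binds the CNS midline element (CME), whose core is ACGTG, in enhancers of midline genes. The fusion protein is precipitated with the DNA it is crosslinked to, and the summit of a peak is the position at which the authors' caller placed the greatest enrichment. The transcription start site (TSS) of a gene is where its RNA begins, and the promoter lies around it.

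The sequences at the summits of the strongest members carried long runs of A and T. The 5 windows below, 50 bp either side of the summit, belong to members among the 20 ranked best in both replicate lists. None of these windows holds an annotated UTR. The choice did not follow rank alone, since the members near px and CG13323 ranked above CenG1A and are not shown. The windows are shown because summits and flanks differed in base composition, as described with the GC content. Each is named by the gene with the nearest TSS, is written 5′ to 3′ on the plus strand of the RefSeq copy of Release 6 (dm6), and has every run of at least 8 A or T bases in capitals.
CG14100 (chr3L:19590572-19590672, plus strand): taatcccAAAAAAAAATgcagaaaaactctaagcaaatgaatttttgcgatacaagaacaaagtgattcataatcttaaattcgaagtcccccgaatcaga
ph-p (chrX:2137308-2137408, plus strand): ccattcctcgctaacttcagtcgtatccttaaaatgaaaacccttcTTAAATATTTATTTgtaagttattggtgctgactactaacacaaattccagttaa
CG18549 (chr3R:12449119-12449219, plus strand): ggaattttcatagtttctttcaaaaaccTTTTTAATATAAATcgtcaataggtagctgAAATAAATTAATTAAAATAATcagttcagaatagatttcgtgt
CenG1A (chr2L:13835433-13835533, plus strand): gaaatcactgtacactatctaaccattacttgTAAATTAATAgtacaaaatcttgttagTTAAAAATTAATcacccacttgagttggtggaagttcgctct
mRpS10 (chr3R:15229489-15229589, plus strand): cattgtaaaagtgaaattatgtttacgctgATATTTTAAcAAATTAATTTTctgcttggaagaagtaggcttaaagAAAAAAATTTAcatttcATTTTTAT

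The CME core is shown in the next 5 windows, from the best members that hold it within 50 bp of the summit and overlap no UTR. They were chosen because this core is the known binding sequence of the precipitated factor. The last window lies in an intron of sim itself and was added for its gene, not by its rank. Capitals mark ACGTG or its reverse complement CACGT.
eEF1gamma (chr3R:29214388-29214488, plus strand): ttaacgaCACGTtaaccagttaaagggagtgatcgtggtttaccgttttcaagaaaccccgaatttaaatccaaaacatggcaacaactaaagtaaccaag
DNAlig3 (chr3R:12403095-12403195, plus strand): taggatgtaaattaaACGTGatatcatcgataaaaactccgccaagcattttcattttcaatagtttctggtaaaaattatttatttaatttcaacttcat
moody (chrX:2050226-2050326, plus strand): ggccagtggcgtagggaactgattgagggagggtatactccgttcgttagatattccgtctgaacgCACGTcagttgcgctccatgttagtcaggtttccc
CG1607 (chr3R:31384214-31384314, plus strand): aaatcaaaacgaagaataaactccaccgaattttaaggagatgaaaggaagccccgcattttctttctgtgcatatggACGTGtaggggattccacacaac
sim (chr3R:13068195-13068295, plus strand): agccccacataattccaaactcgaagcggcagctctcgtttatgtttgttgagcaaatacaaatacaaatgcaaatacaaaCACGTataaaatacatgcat

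Only 4 member summits lay in coding sequence, and the window near l(3)mbn is shown as an example of them. Capitals mark the run of at least 6 G or C bases.
l(3)mbn (chr3L:6124770-6124870, plus strand): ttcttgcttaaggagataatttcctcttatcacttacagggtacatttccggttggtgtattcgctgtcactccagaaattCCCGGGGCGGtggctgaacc

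Signal values of members were 28.0 to 333 in the replicate 1 list, with a median of 61.1, and 27.3 to 452 in the replicate 2 list, with a median of 74.1. These are strengths assigned by the authors' caller on a scale that is not given in the sources used here. Replicate 2 gave the higher value at 642 members and replicate 1 at 185, and the median ratio of replicate 2 to replicate 1 was 1.25. Across the 827 members the values had a Spearman's rho of 0.684 and a Pearson's r of 0.794 on the log10 scale. This describes peaks that share 2 libraries, which differ in unknown depth, and it is not a test. The 100 strongest peaks of each replicate list were overlapped by 100 members in either list, and 75 members stood in both sets. Members overlapped 833 of the 1071 replicate 1 peaks (77.8%) and 824 of the 1676 replicate 2 peaks (49.2%).

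**Figure D1:**
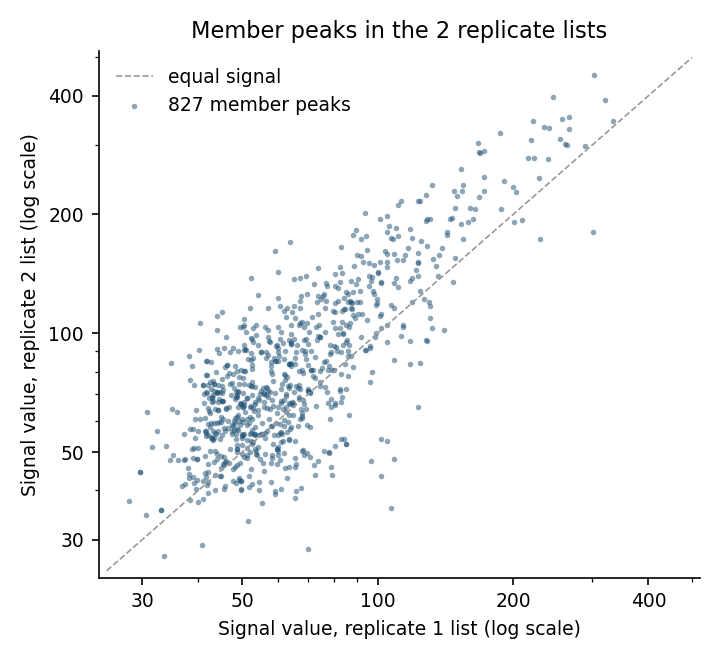
Signal value of each of the 827 members in the replicate 1 list (x axis) and the replicate 2 list (y axis), both on log scales, with a dashed line at equal signal. The cloud lies mostly above the line, and 642 members are higher in replicate 2.

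In the optimal list the members' pooled signal value ran from 3.33 to 755 with a median of 135, and that of the other peaks from 2.01 to 171 with a median of 65.5. The list was divided by signal value into 4 parts of nearly equal size. Of the 671 peaks in the strongest part, 615 (91.7%) were members. The share was 28.4% in the second part, 1.19% in the third and 2.09% in the weakest. Most other peaks also had a call in the replicates' ranked lists, which hold the peaks before thresholding. Of the 1855 other peaks, 1827 overlapped a ranked peak of replicate 1 and 1850 one of replicate 2, with median signal values of 30.4 and 37.2. These long lists hold 96271 and 88343 peaks and cover 20.5% and 18.0% of the bases of the arms. The 14 members with a pooled signal value under 50 all overlapped a stronger optimal peak, and without them 813 members remained. The weakest were those nearest to E(spl)m2-BFM (3.33, against 44.0 in replicate 1 and 70.9 in replicate 2), noc (6.56) and gce (9.95). The last of these genes encodes a bHLH-PAS receptor of juvenile hormone.

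Summits of the overlapping replicate peaks lay close together, at a distance that the overlap rule itself limits and that was not tested. The median distance between them was 18.0 bp, with quartiles at 7 and 38 bp and a maximum of 245 bp. Of the members, 706 (85.4%) had summits within 50 bp and 815 (98.5%) within 100 bp. When the members themselves were divided into 4 parts by pooled signal, the median was 13.0 bp in the strongest part and 23.0 bp in the weakest. Most members (621, 75.1%) had the greatest width in the list, 304 bp, as did 99.9% of the other peaks, and the narrowest was 76 bp.

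Among members the least overlap with a replicate peak was 47 bp, in replicate 2 at the divergent promoter next to Piezo, a mechanosensitive channel gene. Members near InR (insulin receptor), CG6168, Tbcd and CG7810 shared 70 bp with a replicate 2 peak. Just outside were peaks near Stat92E, the JAK/STAT transcription factor, with a signal value of 54.2 in replicate 1 and no overlap in replicate 2, and near larp (89.8 in replicate 1). A peak near CG9663 had 78.6 in replicate 2 and none in replicate 1, and a peak near shep had 41.1. A last one near Piezo, at 4.33 in the optimal list, overlapped the stronger Piezo member.

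The members were concentrated at promoters. Of the 827 summits, 374 (45.2%) lay within 500 bp of the TSS of a protein-coding gene, against 38.1% of the other peaks and 11.5% of all bases on the arms (Fisher's exact test, two-sided, members against other peaks, adjusted p = 0.00147 over 8 tests). Divergent promoters, here summits with TSS of different genes on opposite strands, pointing away from each other, within 500 bp, held 122 members (14.8%) against 8.57% of other peaks (exact adjusted p = 1.20e-05). Coding sequence held 4 members (0.484%) against 3.29% of other peaks and 16.7% of bases (exact adjusted p = 1.20e-05). These tests treat neighbouring peaks as independent, which makes their p-values too small where peaks cluster.

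Other classes gave no call in this list. Introns held 50.2% of members and 49.9% of other peaks (Fisher's exact adjusted p = 0.933), and intergenic sequence 36.6% and 32.5% (0.0756). Summits in 5′ UTRs made up 7.86% and 9.81% (0.128), in other exons 4.11% and 2.75% (0.0973), and in 3′ UTRs 0.726% and 1.73% (0.0808). When membership rested on replicate 2 alone, which leaves out replicate 1, the calls numbered 4 instead of 2 among the 7 classes other than TSS proximity. They then included intergenic sequence (36.5% against 29.9%, exact adjusted p = 9.88e-04) and 5′ UTRs (7.68% against 11.3%, 0.00285).

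**Figure D2:**
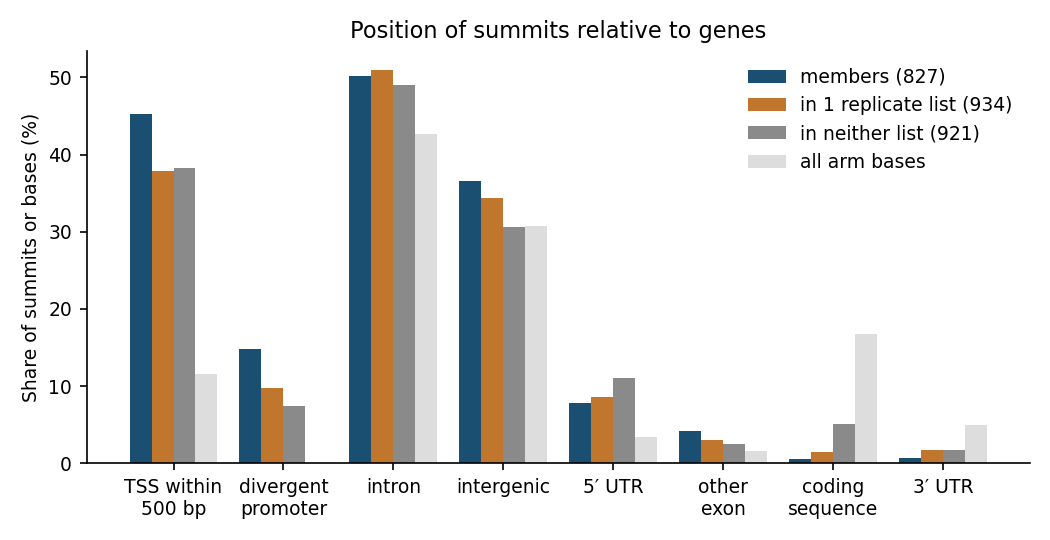
Share of summits (y axis, %) in each genomic class for members, peaks in 1 replicate list and peaks in neither, beside the share of all arm bases where one was computed. Of the peak groups, members have the largest share near TSS (45.2%) and at divergent promoters (14.8%) and the smallest in coding sequence (0.484%), and no base share is drawn for divergent promoters.

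Members were also the stronger peaks, so the shares near a TSS are given by signal value. Within the strongest part of the list, 47.3% of 615 members and 46.4% of 56 other peaks lay near a TSS. In the second part the shares were 37.9% of 190 members and 38.3% of 480 other peaks. In the third part they were 75% of 8 members and 36.9% of 662 other peaks, and in the weakest 35.7% of 14 members and 38.4% of 657 other peaks. In the 2 middle parts together, with 198 members and 1142 other peaks, none of the 8 class tests passed (Fisher's exact test, 1 at an unadjusted p under 0.05). There the TSS shares were 39.4% and 37.5% (exact adjusted p = 0.942), and divergent promoters held 14.6% and 9.63% (0.340). The difference at divergent promoters was thus 5.01 percentage points there, against 6.18 over the whole list. Membership and signal value go together in this list, and their parts in the class differences cannot be told apart.

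Promoter summits lay upstream of the start. Among the 374 members near a TSS, the median position was 136 bp upstream of it, with quartiles at 203 and 52.8 bp upstream. Of these members 313 (83.7%) were upstream, and 185 (49.5%) lay 50 to 200 bp upstream. Among the 706 other peaks near a TSS the median was 89.0 bp upstream, 71% were upstream and 36.4% lay in that interval. Positions were not tested.

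**Figure D3:**
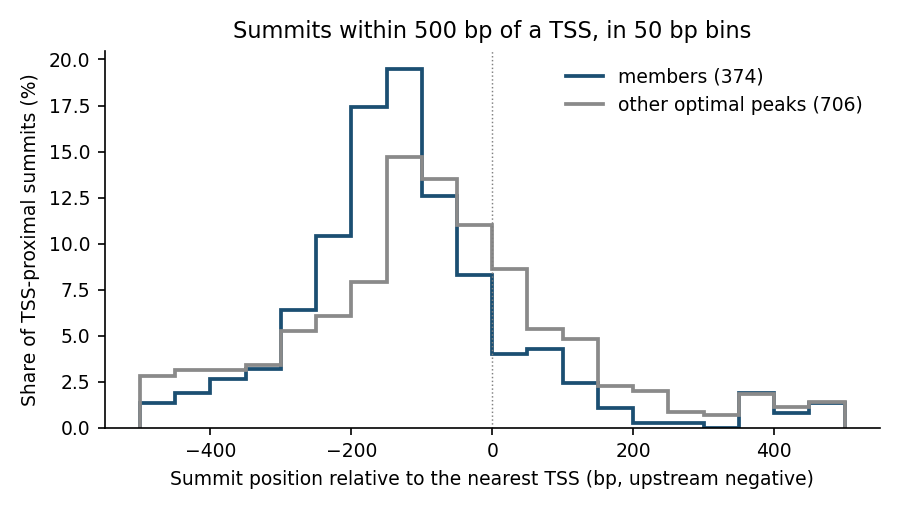
Positions of summits within 500 bp of a TSS in bins of 50 bp (x axis, bp, upstream negative), as the share of TSS-proximal summits (y axis, %) for 374 members and 706 other peaks. The mode of both groups is the bin from 150 to 100 bp upstream, with 19.5% of the members and 14.7% of the other peaks.

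The 20 members ranked best in both replicates were mostly at promoters. They were ranked by the poorer of their ranks in the replicate lists. Their signal values were 191 to 333 in replicate 1 (median 249.6) and 243 to 452 in replicate 2 (median 319.9), and all 20 were higher in replicate 2. Of the 20 summits, 15 lay within 500 bp of a TSS, 14 of them upstream, and 5 were at divergent promoters. Their replicate summits were 1 to 24 bp apart, with a median of 7 bp.

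At the top stood the member near Ugalt, a UDP-galactose transporter gene, with 303 in replicate 1 and 452 in replicate 2. The member near CG14100 had 320.1 and 389.8, and the one near px, a wing vein gene, had 333 and 346. The member in an intron near ph-p, which encodes a subunit of Polycomb repressive complex 1, had 266 and 354. It lay 503 bp upstream of its TSS, and 3 members had their nearest TSS at ph-p.

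The divergent promoter nearest to mRpS10, a mitochondrial ribosomal protein gene, had 254 in replicate 1 and 311 in replicate 2, and the promoter of mRpL41 had 234 and 334. That of PNPase, a mitochondrial polyribonucleotide nucleotidyltransferase, had 219 and 309, with the summit 84 bp downstream of the TSS. The divergent promoter next to Tcs5, a tRNA modification gene, had 261 and 301.

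Of the rest, Chro, which encodes the interband and spindle protein Chromator, had 264 in replicate 1 and 300.2 in replicate 2 at a divergent promoter. An intron of Tlk, the Tousled-like kinase, had 216 and 278 at 2319 bp from the TSS. The divergent promoter next to CenG1A, an ArfGAP gene, had 245 and 397, gish, a casein kinase gene, had 240.2 and 331 in an intron, and Fkbp14, a peptidyl-prolyl isomerase gene, had 221 and 346. The others of the 20 were nearest to CG13323, CG18549, CG11050, Tina-1, CG7601, CG1888 and CG12769, and the one near CG13323 was intergenic with its TSS 11922 bp away.

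The best members of the smaller classes are given next. Among other exons the best were near osa, a subunit gene of the Brahma chromatin remodelling complex (168 in replicate 1 and 222 in replicate 2), hll (301 and 181) and brwl (125 and 171). The member near hll had the higher value in replicate 1, unlike the other two. In coding sequence the 3 best of the 4 members were near CycY, a cyclin gene (105 and 159), Cib2 (84.6 and 115) and l(3)mbn (66.4 and 72.7). In 3′ UTRs they were near CG17726 (123 and 151), cu (85.0 and 94.8) and pigs (86.6 and 93.2).

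Some genes had clusters of members. In all 694 genes were nearest to a member, 100 of them to 2 or more and 25 to 3 or more. The transcriptional co-regulator gene sbb had 6, of which 5 were in introns up to 22042 bp from the TSS and the sixth at its promoter. Their signal values ran from 46.8 to 149 in replicate 1 and from 46.8 to 208 in replicate 2. Raf, the kinase of the MAP kinase cascade, had 4 in introns within 6813 bp, with 37.3 to 80.5 in replicate 1 and 48.0 to 134 in replicate 2.

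Ids, chinmo and Eip75B, an ecdysone-induced nuclear receptor gene, also had 4 members each by this count. Those nearest to Ids lay 16384 to 17978 bp away between genes, and the farthest was within 5 kb of sty, an inhibitor of EGFR signalling. Those nearest to chinmo, a zinc finger gene of neuronal temporal identity, lay 1920 to 18431 bp upstream. Neighbouring members on an arm were a median of 71173 bp apart, and 35 of 821 neighbour pairs lay within 1000 bp.

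Members lay on all 6 arms. The X chromosome held 157 of them (19.0%, 95% Clopper-Pearson interval 16.4% to 21.8%) and makes up 17.6% of the arms' bases. It held 17.7% of the peaks in 1 replicate list and 12.2% of those in neither. Arm 2L held 21.5% (18.8% to 24.5%) with 17.6% of the bases, and 3R held 20.6% (17.9% to 23.5%) with 24.0%, and for these the interval did not contain the share of bases. Peaks in 1 replicate list had similar shares there, 21.2% on 2L and 21.2% on 3R. Arm 2R held 17.5% (15.0% to 20.3%) with 18.9% of the bases, and 3L 21.0% (18.3% to 24.0%) with 21.0%. The small arm 4 held 3 members (0.363%, 0.0749% to 1.06%) with 1.01% of the bases. These intervals cover counting error only.

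Sim and the midline came first among the gene lists because Sim directs midline development. A gene was counted when a member summit lay in it or within 5 kb either side, as it did for 1729 of 13945 protein-coding genes (12.4%), and counts are given beside that share with no test. Of 14 midline genes, 4 carried a member. They were aos, a secreted EGFR antagonist (106 in replicate 1 and 187 in replicate 2, in an intron), S, which encodes the EGFR ligand chaperone Star (87.1 and 116), sim itself (118 and 95.4, in an intron 4154 bp upstream of its nearest TSS) and glec (38 and 45.5). The intronic sim member held the CME core and was one of 54 that did. Of 12 bHLH-PAS genes 3 carried one: sim, sima, the hypoxia-inducible factor gene (42.9 and 54.0), and gce, whose best of 4 had 85.3 and 52.5.

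EGFR signalling genes carried members in 10 of 25 cases (40%), and 8 of the 10 had their own TSS nearest to the best member. Beyond aos and S, the best were at edl, which encodes an inhibitor of Pointed and Yan (86.1 in replicate 1 and 120.1 in replicate 2), and aop, which encodes the repressor Yan itself (83.3 and 114). No best member of these 10 genes lay within 500 bp of a TSS. Of 24 Notch pathway genes 10 (41.7%) carried one, but with 7 distinct best members, since neighbouring E(spl) genes shared them. E(spl)m7-HLH, E(spl)m8-HLH and the corepressor gene gro shared a member of 87.2 and 136, and one near O-fut1, a Notch glycosyltransferase gene, had 65.4 and 109.6. By nearest TSS the Notch count was 2 of 24 (8.33%), and 694 of all 13945 protein-coding genes (4.98%) were nearest to a member. Axon guidance genes carried members in 5 of 27 cases (18.5%), led by NetA (69.9 and 83.3), the Semaphorin gene Sema1a (51.5 and 86.0), trio (54.3 and 63.9) and NetB (84.2 and 54.1). The best members of NetA and NetB had their nearest TSS at sbm and hog. By nearest TSS the axon guidance count was 3 of 27 (11.1%).

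Chromatin regulators formed 3 of the lists. Polycomb group genes carried a member in 5 of 20 cases (25%), and 3 of the 5 had their own TSS nearest to the best member. After ph-p came Psc (187 and 322, between genes 4227 bp upstream), phol, which encodes a DNA-binding recruiter of Polycomb complexes (132 and 237), and Pc (123 and 217). The members at phol and Pc were nearest to the TSS of CG3552 and CG11309. Trithorax group genes carried one in 7 of 18 cases (38.9%). Their best were ash1, a histone methyltransferase gene that shares the CG14100 member (320.1 and 389.8), osa, tara (148 and 229) and Trl, which encodes GAGA factor (128 and 192). Insulator protein genes did so in 4 of 16 cases (25%): Chro, mod(mdg4) (81.6 and 99.4), Cp190 (73.8 and 98.3) and Dref (58.1 and 58.3). The nearest TSS belonged to the named gene only for Chro.

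Genes of the translation machinery formed 4 of the lists. Cytoplasmic ribosomal protein genes carried one in 34 of 86 cases (39.5%), and 23 of the 86 had their own TSS nearest to a member. Of the 34 genes, with 33 distinct best members, 28 had theirs at most 100 bp from a TSS. Signal values of the best members were 38.6 to 123 in replicate 1 and 38.1 to 151 in replicate 2. Among the best were those near RpL3, a member shared with CG17726 (123 and 151), RpL27 (90.3 and 137) and RpL35 (109 and 85.6). Their medians were 61.5 and 66.8. Mitochondrial ribosomal protein genes carried one in 14 of 73 cases (19.2%), of which 3 by nearest TSS. Their best were near mRpS23, mRpS10, mRpL41 and mRpL23 (143 and 181). Translation factor genes did so in 7 of 53 cases (13.2%), with eIF2Bbeta sharing the Ugalt member, eIF6 at 97.3 and 139, eIF3d1 at 80.1 and 92.8 and eEF1gamma at 67.4 and 106. Aminoacyl-tRNA synthetase genes did so in 5 of 32 cases (15.6%), led by AlaRS (128 and 224), GlnRS (107 and 118), CysRS-m and GlyRS (59.9 and 93.5). None of the 32 had its own TSS nearest to a member, against 4.98% of all genes. With 1 kb in place of 5 kb the share was 3.12%, against 6.41% of all genes.

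Shares in 5 other housekeeping lists ran from 6.67% to 18.2%. Respiratory chain genes carried members in 13 of 85 cases (15.3%), among them COX7AL2 (172 in replicate 1 and 249 in replicate 2), ND-51 (168 and 288), and COX5B and COX5BL, which share one (73.6 and 112). These members had their nearest TSS at CG31668, CG9147 and Trmt6. By nearest TSS 2 of the 85 genes (2.35%) carried a member, against 4.98% of all genes. Within 1 kb the count was also 2 (2.35%), against 6.41%. Proteasome genes did so in 4 of 48 cases (8.33%): Prosbeta2R2 (229.8 and 173), Rpn5 (91.7 and 97.8), Rpt5 (68.9 and 90) and Prosalpha4 (60.0 and 91.6). None of the 48 had its own TSS nearest to a member, against 4.98% of all genes. Cell cycle and replication genes did so in 4 of 29 cases (13.8%), with CycB (165 and 207), fzr, Orc1 and Mcm6. Splicing factor genes did so in 1 of 15 cases, mub (123 and 152). Heat shock genes did so in 4 of 22 cases (18.2%), with 2 distinct best members: Hsp23, Hsp27 and Hsp67Ba shared one (123 and 160.2), and Hsp83 had the other (96.1 and 91.8).

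Markers of tissues other than the midline also carried members, in numbers that are small for each list. Of 13 glial genes 4 did: moody, a receptor gene of the blood-brain barrier (88.2 in replicate 1 and 127 in replicate 2), pnt, Gs2 and nrv2. Of 14 neuronal genes 3 did, elav (85.8 and 126) and the nested pair ChAT and VAChT, which share one. Of 15 muscle genes 4 did: Mef2 (123 and 140.0), tin, Tm1 and how. For the trachea 2 of 11 did, rib (64.9 and 66.7) and tkv (50.5 and 48.5). Of 18 segmentation genes 2 did, slp2 (147 and 135) and slp1, and of 8 Hox genes 1 did, Antp (48.1 and 82.4). For hemocytes and fat body 3 of 12 did, ush, Lsp2 and Hml, for gut endoderm 2 of 7, cad and fkh, and for the germline 2 of 9, bgcn and bam. The best germline members had their nearest TSS at eIF6 and RpS27. Those of Mef2, Tm1, nrv2 and cad had theirs at Pal1, CG4338, nrv1 and Pomp. For Lsp2 and Hml it was at yps and CG8745, and for ChAT and VAChT at CG34283. The other genes named for these tissues had their own TSS nearest to the best member. The best members of tin and Tm1 are those also counted for mod(mdg4) and Cp190. Over all 26 lists together 153 of 691 listed genes (22.1%) carried a member, against 12.4% of all protein-coding genes, a difference that gene length and gene spacing were not adjusted for. With 1 kb in place of 5 kb the shares were 13.9% and 6.41%, and by nearest TSS 10.6% and 4.98%. Because the lists were chosen with earlier results of these data known, these differences are descriptions only.

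Summits of members were poor in G and C. GC content averaged 32.2% (SD 9.22, n = 827 windows of 101 bp) at summits and 43.6% (SD 10.1) in windows of the same length centred 300 bp to a randomly drawn side, and 659 members (79.7%) had the lower value at the summit. The mean over all arms was 42.1%. Peaks in 1 replicate list averaged 34.9% (SD 10.2) at summits and those in neither 40.1% (SD 11.7). In bins of 20 bp the members' mean fell to 31.1% beside the summit and was 44.5% at 110 bp downstream on the plus strand. Members near a TSS averaged 32.0% and those away from one 32.4%, while windows 136 bp upstream of all 19253 annotated TSS averaged 37.6% (SD 11.2).

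**Figure D4:**
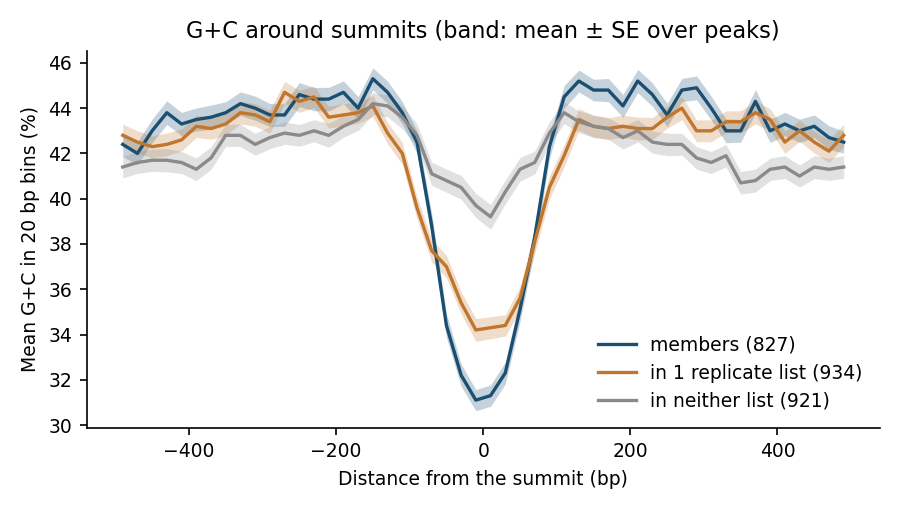
Mean GC content (y axis, %, axis not starting at 0) in bins of 20 bp up to 490 bp either side of the summit (x axis) for 827 members, 934 peaks in 1 replicate list and 921 in neither, with bands of ± 1 SE over peaks. The trough is deepest in members (31.1%), shallower in 1 list (34.2%) and shallowest in neither (39.2%).

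GC content also moved with signal value. In the second part of the list the members averaged 34.2% (n = 190) and the other peaks 33.4% (n = 480) at summits, and in the strongest part 31.3% (n = 615) and 29.4% (n = 56). In both parts the mean of the other peaks was the lower one. The longest run of A and T in a summit window averaged 11.4 bases (SD 4.99) in members, 8.30 (SD 4.16) in their flanks and 9.93 (SD 4.87) in the other peaks. A run of at least 10 bases was present in 57.1% of member windows, 27.7% of flanks and 44.4% of other peaks. Among the 20 best members 75% had one, as seen in the printed windows, and their GC content averaged 28.5% (SD 5.35) against 45.5% in their flanks. The 4 coding members averaged 53.2% (SD 13.1).

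The CME core was not more frequent at member summits than in flanks or at other peaks. ACGTG, on either strand, lay within 50 bp of the summit in 54 members (6.53%) and in 9.31% of flanking windows, and 48 members held it at the summit alone and 71 only in the flank (exact McNemar, adjusted p = 0.108 over 20 patterns). It was present in 7.60% of the other peaks (Fisher's exact adjusted p = 0.682), 8.20% of windows tiled over the arms, 5.67% of those windows weighted to the GC content of the members, and 7% of windows at all promoters. Against the share weighted to GC content the direction turned, with the summits higher, and this difference was not tested. The flanks, in contrast, are richer in G and C than the summits. The longer TACGTG was at 2.06% of summits and 2.18% of flanks, and the palindrome CACGTG, which also contains the core, at 0.846% and 1.45%. The difference of summit minus flank was -2.78 percentage points, and it passed as less frequent at summits under 4 of 12 alternatives. Without replicate 1, when membership rested on replicate 2 alone, it was -3.65 points (exact McNemar adjusted p = 6.78e-04). With flanks 1000 bp away it was -3.39 (exact adjusted p = 0.0499), for summits over 500 bp from a TSS -4.64 (exact adjusted p = 0.0375), and at the replicate 2 summits -3.63 (exact adjusted p = 0.0335). Under the other alternatives the exact adjusted p reached at most 0.397.

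The 54 members with the core had a median signal value of 63.8 in replicate 1 and 74.7 in replicate 2, against 60.9 and 74.1 in the members without it. Of the 54, 34 (63.0%) lay within 500 bp of a TSS, against 45.2% of all members. By class 22 of the 54 were in introns, 22 between genes and 8 in 5′ UTRs. Over all members these classes held 50.2%, 36.6% and 7.86%, and the differences were not tested. The best were near Tina-1 (223 in replicate 1 and 278 in replicate 2), eEF1gamma (172 and 289, between genes 5734 bp upstream), DNAlig3 (119 and 174) and moody (88.2 and 127). After them came CG1607 (87.5 and 120.1), elav, which encodes a neuronal RNA-binding protein (85.8 and 126), CG9135 (80.3 and 103), sim, CG6168 (74.1 and 105) and betaggt-I (71.6 and 110.1).

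Of the 20 patterns 3 (15%) were more frequent at member summits than in flanks and 4 (20%) less frequent. TATAAA, the letters of the TATA box, was at 25.6% of summits and 8.22% of flanks (exact McNemar adjusted p = 4.99e-19). It was present in 29.4% of members near a TSS and in 22.5% of those away from one. The homeodomain pattern TAATTA was at 10.4% and 5.44% (exact adjusted p = 0.00122), and the POU pattern ATTTGCAT at 2.42% and 0.726% (exact adjusted p = 0.0267). All these letters are mostly A and T, and genome windows of the members' GC content held TATAAA in 23.8% of cases, TAATTA in 12% and ATTTGCAT in 1.88%. Against that share the direction turned for TAATTA. The TAATTA call ended with windows of 25 bp either side (exact McNemar adjusted p = 0.0617) and for summits over 500 bp from a TSS (0.155). The POU call ended under 5 of 12 alternatives, with exact adjusted p values from 0.0749 (windows of 25 bp either side) to 0.342 (flanks 1000 bp away), and without replicate 2 the value was 0.0841.

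GAGAG, the pattern bound by GAGA factor, was rarer at the summits than beside them. It lay within 50 bp of 8.34% of summits and in 18.5% of flanks (exact McNemar adjusted p = 1.41e-08), and in windows centred 100 bp before and after the summit it was at 23.0% and 23.8%. On at least 1 of those sides 320 members (38.7%) held it, against 32.2% of the other peaks. On both sides 67 members (8.10%) held it, against 4.26%, and these differences were not tested. Genome windows of the members' GC content held it in 7.62% of cases, below the summit share. Against flanks 1000 bp away the difference of summit minus flank was -3.26 percentage points and did not pass (exact McNemar adjusted p = 0.101), while windows reaching 100 bp to each side gave -2.66 (exact adjusted p = 0.457). The CA repeat CACACACA was at 0.726% of summits and 4.59% of flanks (exact adjusted p = 6.29e-06). The E-box patterns CAGGTG, bound by Snail, at 1.93% and 4.35% (exact adjusted p = 0.0220), and CAGCTG, at 2.06% and 4.59% (0.0219), were less frequent too. In genome windows of the members' GC content the shares were 1.27% for CACACACA, 1.93% for CAGGTG and 2.08% for CAGCTG. The CAGGTG call ended under 7 of 12 alternatives, with exact adjusted p values from 0.0562 (without replicate 2) to 0.439 (summits over 500 bp from a TSS), and the CAGCTG call under 6, with 0.139 (top score alone) to 1.00 (windows of 25 bp either side).

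**Figure D5:**
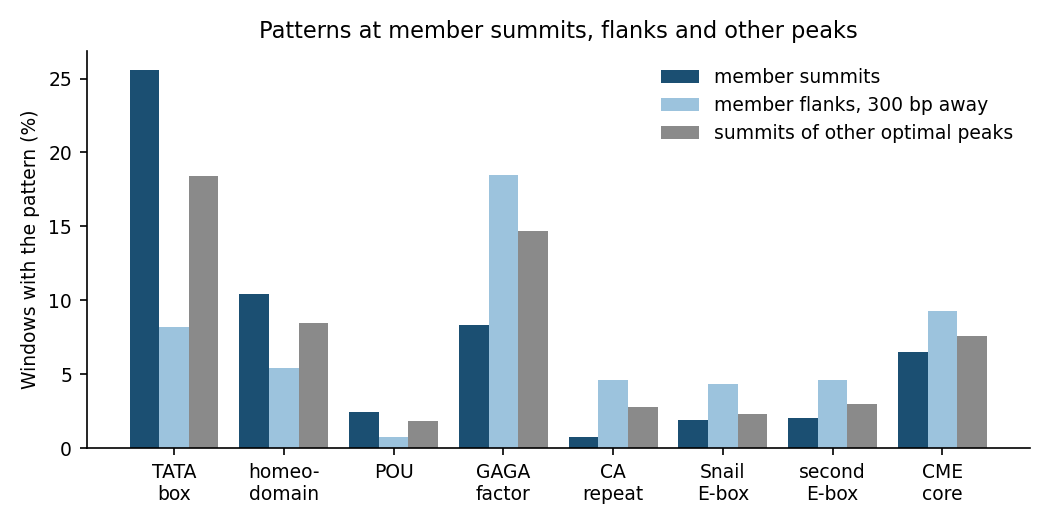
Share of windows of 101 bp (y axis, %) with each of 8 patterns on either strand at the 827 member summits, in their flanks and at the 1855 summits of other peaks. TATA box letters are highest at member summits (25.6%), GAGA factor letters are highest in flanks (18.5%), and the second E-box is CAGCTG.

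Between members and other peaks 1 pattern (5%) was more frequent in members and 2 (10%) less frequent. TATAAA was at 25.6% of members and 18.4% of other peaks (two-sided Fisher's exact adjusted p = 2.73e-04), GAGAG at 8.34% and 14.7% (6.32e-05), and CACACACA at 0.726% and 2.80% (0.00185). The CACACACA call ended without replicate 2 (exact adjusted p = 0.189) and under 6 of the other alternatives. The GAGAG call ended under 4 alternatives and the TATAAA call under 4, among them windows of 100 bp either side for GAGAG (exact adjusted p = 0.932) and of 25 bp for TATAAA (exact adjusted p = 0.118). In the 2 middle parts of the list by signal value no pattern passed (1 at an unadjusted p under 0.05), with TATAAA at 21.2% of members and 20.8% of other peaks and GAGAG at 9.09% and 13.7% (exact adjusted p = 0.571). For the remaining patterns neither difference, from flanks or from other peaks, passed the threshold. They were the Twist E-box CATATG (4.47% of summits), the BEAF core CGATA (13.1%), the DRE TATCGATA, which contains that core (0.726%), Motif 1 TCACACT (1.45%), the Su(Hw) core GCATACTT (0.605%), the Zelda pattern CAGGTAG (0.484%), the Su(H) pattern GTGGGAA (0.484%), the Sox pattern ATTGTT (12.8%), the Grainyhead pattern AACCGGTT (0 of 827) and the A tract AAAAAAAA (6.53%).

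The same composition appeared when all 6-mers were tested. Each 6-mer was counted together with its reverse complement. Of the resulting 2080 words 246 (11.8%) were more frequent at member summits than in flanks and 402 (19.3%) less frequent (exact McNemar test, adjusted over 2080). Without replicate 1 the less frequent words numbered 688. Of the 246, 195 had at least 5 A or T bases, as did 228 of all 2080 words, and all 36 words made of A and T alone were among them. Of the 402, 309 had at most 2, as did 720 of all 2080 words. None of the 8 words that contain the CME core was more frequent, and 2 were less frequent. ATTTAA led with 36.9% of summits and 11.5% of flanks (exact adjusted p = 5.46e-27), against 22.1% of other peaks and 29.1% of genome windows of the members' GC content. TAAATA was at 35.2% and 13.8% (exact adjusted p = 1.19e-20). Among the less frequent words CTCTCC was at 0.846% and 7.13% (exact adjusted p = 6.96e-10).

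Against the other peaks 60 words (2.88%) were more frequent in members and 45 (2.16%) less frequent (two-sided Fisher's exact test, adjusted over 2080). Of the 60, 58 were also more frequent at summits than in flanks, and 43 of the 45 were also less frequent there. Both comparisons used the same member summit windows, so this overlap is not independent support. The counts were 9 and 8 without replicate 2, and 144 and 271 without replicate 1. In the 2 middle parts of the list none passed, with 51 higher and 35 lower at an unadjusted p under 0.05 (Fisher's exact test).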

How the data were processed

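Chromatin immunoprecipitation of a Sim-eGFP fusion from whole embryos was sequenced in 2 biological replicates. Lists of peaks on dm6, thresholded by the irreproducible discovery rate (IDR), were deposited by the authors for each replicate and for both together. Each replicate's ranked list, before thresholding, served to look for calls at the other peaks. The ranked lists of the whole series were not used, among them 16 columns that hold values of the sets of calls compared. The deposited score is the scaled IDR, which reached its cap of 1000, per the values in the files. The deposited signal value is the strength given by the authors' peak caller. The deposited −log10 q-value was read from the lists and enters no result. Which aligner and peak caller were run is not given in the sources used here. Depth is unknown, so no interval that needs it is given.

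Members were optimal peaks overlapping both replicate lists. Members and lists of genes and patterns were chosen with earlier results of these data known. Gene models and TSS were those of Ensembl release 115 (BDGP6), with arm lengths equal to those of dm6, and the RefSeq copy of dm6 gave the bases. Summit windows of 101 bp were compared with flanks 300 bp to 1 side by an exact McNemar test, and with other peaks by Fisher's exact test, both two-sided and each with Benjamini-Hochberg adjustment in its family (8 class tests, 20 patterns, 2080 6-mers) at a threshold of 0.05. Genes named are the 20 best members by the poorer replicate rank, the 3 best of each class, the 10 best with the CME core, the 5 genes with most members (Eip75B, tied with the last of them, was added), up to 4 genes of each list and the peaks nearest to the overlap limit. A few items that these rules name are not reported here. Other genes and the weakest members were named after their values were seen. Tests ran in scipy 1.17.1 under Python 3.11.15, tables in pandas 2.3.3 and numpy 2.4.6, and plots in matplotlib 3.10.9.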

Additional observations from a re-analysis of the deposited data

How the results depend on the processing

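No paired analysis was possible because the series holds 1 group. The number of members was 651 to 825 under the alternatives that keep both replicates, and 1025 to 1563 when membership rested on 1 replicate. Without 1 replicate, calls among the classes were 2 to 4, patterns more frequent at summits 2 to 3 and less frequent 3 to 6, patterns more frequent in members than other peaks 1 to 2 and less frequent 1 to 2, and the GC difference between summit and flank -10.9 to -9.75 points, against -11.4. In that setting 6-mers more frequent at summits numbered 235 to 319 and less frequent 373 to 688, and 6-mers more frequent in members than other peaks 9 to 144 and less frequent 8 to 271.

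The excess of members near a TSS, 7.16 points over other peaks, was 1.92 points in the 2 middle parts of the list by signal value, where it did not pass, and reversed to -0.439 points in the second-strongest part, an alternative chosen after seeing the data. In both of these settings 0 classes, 0 patterns and 0 6-mers passed between members and other peaks, in either direction, while the difference at divergent promoters was 5.01 points in the middle parts and 4.53 in the second-strongest part, against 6.18. TATAAA reversed to -4.46 points and CACACACA to 0.219 points in the second-strongest part, neither past the threshold, with far fewer members tested. With only peaks at the top score, 4 classes passed and 2 patterns were less frequent at summits. In the conservative list 1 pattern was less frequent in members than other peaks. Flanks 1000 bp away gave a GC difference of -9.83 points. Windows of 100 bp either side gave -7.92 points, 1 pattern less frequent at summits, and 0 patterns and 25 6-mers less frequent in members than other peaks. Windows of 25 bp either side gave 2 patterns less frequent at summits, 134 6-mers more frequent and 143 less frequent there, and, between members and other peaks, 0 patterns more and 1 less frequent and 15 6-mers more and 5 less frequent. The CME core difference from other peaks reversed to 0.573 points with 100 bp and 0.0434 points with 25 bp, never past the threshold. For summits over 500 bp from a TSS, 1 pattern was more frequent than in flanks, 197 6-mers were less frequent, and between members and other peaks 0 patterns and 1 6-mer passed in each direction. Listed genes with a member numbered 96 (13.9%, against 6.41% of all genes) with 1 kb either side and 73 (10.6%, against 4.98%) by nearest TSS, in place of 153 (22.1%, against 12.4%). The cause of these changes was not tested. In 92 further comparisons of a summary count or difference with an alternative, the direction and the side of the threshold were kept, or the count stayed within 1.5 times. Depth is unknown, so no detection limit can be given.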
